A study of Mus musculus with 13 samples.

Results

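Ifit1, Ifit2, Ifit3 and Ifit3b, 4 of the Ifit genes of the mouse, were followed in CD45- thymic stroma. Libraries came from steady state and from days after sublethal total body irradiation (TBI). The paralogs Ifit1bl1 and Ifit1bl2 of the same cluster are not among the 4 and are given as neighbours. The 4 genes were taken by symbol from a count table of 53379 genes, all 4 passed the filter on low counts that left 19984 genes for testing, and they were chosen on their higher counts at day 1 than at steady state. Every value of the 4 genes that involves day 1, the ratios between them included, is therefore given as a description, with no test.

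The cells were CD45- cells, that is, cells without the surface protein of blood-derived leukocytes, from the thymus of wild type C57BL/6 mice 2 months old. Polyadenylated RNA was sequenced in bulk from 4 steady-state libraries (labelled untreated, PBS in the headers of the count table) and from 3 libraries for each time after TBI, namely day 1, day 4 and day 7. The libraries held 15721866 to 52056896 counts, with a median of 44078906. The study's methods speak of biological replicates for these libraries and, for its tests in general, of individual mice, while the labels do not tie a library to a mouse. A p-value here sets a difference against the spread between libraries within groups. In the edgeR fit all 4 groups share that spread, so the p-values for days 4 and 7 also carry the spread of the day 1 libraries. Of the 19984 genes tested by edgeR, 3444 had an unadjusted p under 0.05 at day 1 against steady state. At day 4 there were 2602, at day 7 there were 2691, and between days 4 and 7 there were 3735. Counts at this threshold below are to be read beside these.

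Ifit proteins are built of tetratricopeptide repeats and are made in response to interferon and to double-stranded RNA. Ifit1 binds capped RNA that lacks 2′-O methylation of the first nucleotide, a form that marks viral RNA as foreign, and holds it back from translation. Complexes of IFIT1 with IFIT2 and IFIT3 are described for the human proteins. Ifit proteins also bind subunits of the translation initiation factor eIF3. The genes are classic targets of type I and type III interferon, whose receptors act on promoters through the interferon-stimulated response element (ISRE).

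The 4 genes lie on the + strand of chromosome 19 (GRCm38) within 99316 bases, between 34550694 and 34650009. Ifit2 comes first at 34550694 to 34576419, Ifit3 follows at 34583531 to 34588731, Ifit3b lies at 34607970 to 34613401 and Ifit1 comes last at 34640871 to 34650009. Each of Ifit1, Ifit3 and Ifit3b has 2 exons, both with coding sequence, of 1389 coding bases in Ifit1 and 1209 in each of the other two. Ifit2 has 4 exon blocks over 2 transcripts, with 1410 coding bases. No exon of the 4 overlaps an exon of another annotated gene.

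The promoters are shown because the members differ in exact matches to a core of the ISRE within the windows searched. The 250 bases before the annotated start are printed 5′ to 3′ on the + strand, from RefSeq promoters of build GRCm38.p6, for Ifit1 (chr19:34640639-34640888), Ifit3 (chr19:34583279-34583528), Ifit3b (chr19:34607707-34607956) and the first of the Ifit2 starts (chr19:34550444-34550693). Capitals mark the ISRE core, defined as GAAA and GAAA separated by 2 bases and read on both strands, so that it appears here as a pair of TTTC.
Ifit1: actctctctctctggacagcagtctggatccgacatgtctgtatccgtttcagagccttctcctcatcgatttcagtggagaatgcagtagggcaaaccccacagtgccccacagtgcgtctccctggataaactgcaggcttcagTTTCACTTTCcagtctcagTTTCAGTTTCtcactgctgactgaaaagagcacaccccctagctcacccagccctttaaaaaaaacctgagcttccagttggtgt
Ifit3: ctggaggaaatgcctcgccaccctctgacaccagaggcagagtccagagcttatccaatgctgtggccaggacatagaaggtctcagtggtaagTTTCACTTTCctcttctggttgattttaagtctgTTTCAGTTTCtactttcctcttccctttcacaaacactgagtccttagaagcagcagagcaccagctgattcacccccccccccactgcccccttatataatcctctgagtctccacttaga
Ifit3b: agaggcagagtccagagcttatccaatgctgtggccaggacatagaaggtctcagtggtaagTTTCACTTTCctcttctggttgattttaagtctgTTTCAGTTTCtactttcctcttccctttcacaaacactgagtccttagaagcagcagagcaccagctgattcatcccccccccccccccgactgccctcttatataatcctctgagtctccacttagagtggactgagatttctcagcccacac
Ifit2: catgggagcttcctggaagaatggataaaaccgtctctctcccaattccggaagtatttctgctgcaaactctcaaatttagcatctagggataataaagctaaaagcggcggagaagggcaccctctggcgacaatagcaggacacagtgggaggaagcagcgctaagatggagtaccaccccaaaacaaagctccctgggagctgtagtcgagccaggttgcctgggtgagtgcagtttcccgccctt
Ifit1, Ifit3 and Ifit3b each held 2 ISRE cores, which began at -104 and -85 from the start in Ifit1, at -156 and -122 in Ifit3 and at -188 and -154 in Ifit3b. Neither Ifit2 window held this core, which says only that these letters are not in those windows. Of 32817 mouse promoters searched over the same 300 bases (250 before and 50 after the start), 3.43% held at least 1 core and 0.222% held 2 or more. Of the other interferon-stimulated genes listed for this report, 15 of 29 with a promoter in the table held at least 1. The Ifit3 and Ifit3b promoters were identical at 259 of 260 aligned bases, and another 14 positions of the alignment faced a gap and were not counted. The first Ifit2 window held 1 interferon-gamma activated sequence (TTC, 3 bases, GAA), a motif found in 8.29% of promoters, and no member's window held TATAAA, found in 13.6%.

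Near-identical sequence limits how well Ifit3 and Ifit3b counts can be told apart. Of all stretches of 50 bases in the Ifit3 transcript 51.2% also occurred in Ifit3b, and 45.0% of the Ifit3b stretches occurred in another gene. With stretches of 100 bases the shares were 31.7% and 27.4%. Ifit1 shared 7.13% of its 50-base stretches with its paralogs Ifit1bl1 and Ifit1bl2, and Ifit2 shared none. Values of Ifit3 and Ifit3b are thus uncertain as separate genes.

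Levels are given as CPM, counts scaled to the effective library size of edgeR. Ifit3 stood at 81.4, 66.1, 65.2 and 65.0 CPM in the 4 steady-state libraries (PBS day 1 replicate 2, PBS day 4 replicate 2, PBS day 7 replicate 1 and PBS day 7 replicate 2, the order kept throughout). It stood at 2781, 1232 and 1280 CPM in day 1 replicates 1 to 3. Day 4 gave 98.4, 79.2 and 112 CPM and day 7 gave 72.5, 52.9 and 70.7 CPM. All 3 day 1 libraries lay above every other library, and the day 7 and steady-state ranges overlapped. Against steady state, Ifit3 was 25.4-fold higher at day 1 (log2 fold change 4.67 ± 0.314, SE).

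Ifit3b, the near-copy of Ifit3, had 24.9, 16.4, 19.9 and 19.3 CPM at steady state. Its day 1 values were 752, 332 and 341 CPM. It returned to 29.4, 21.4 and 31.8 CPM at day 4 and to 21.6, 16.4 and 20.2 CPM at day 7. The day 1 libraries again stood apart, while the other 3 groups overlapped. The day 1 level was 23.6-fold that of steady state (log2 fold change 4.56 ± 0.318, SE).

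Ifit1, the member that recognizes unmethylated caps, had 149, 83.6, 81.4 and 71.1 CPM at steady state. At day 1 it reached 1505, 759 and 698 CPM. It had 85.0, 78.5 and 95.2 CPM at day 4 and 55.0, 52.4 and 75.9 CPM at day 7. Its day 1 range did not overlap any other, and 1 steady-state library, PBS day 1 replicate 2, lay well above the other 3. The day 1 level was 10.3-fold that of steady state (log2 fold change 3.36 ± 0.331, SE).

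Ifit2, the member linked to cell death in other settings, had 59.1, 53.7, 58.4 and 63.9 CPM at steady state. Its day 1 values were 536, 235 and 276 CPM. They were followed by 51.2, 50.7 and 59.1 CPM at day 4 and by 51.5, 69.3 and 55.0 CPM at day 7. Steady state, day 4 and day 7 overlapped, and day 1 stood above all of them. The day 1 level was 5.94-fold that of steady state (log2 fold change 2.57 ± 0.262, SE).

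**Figure D1:**
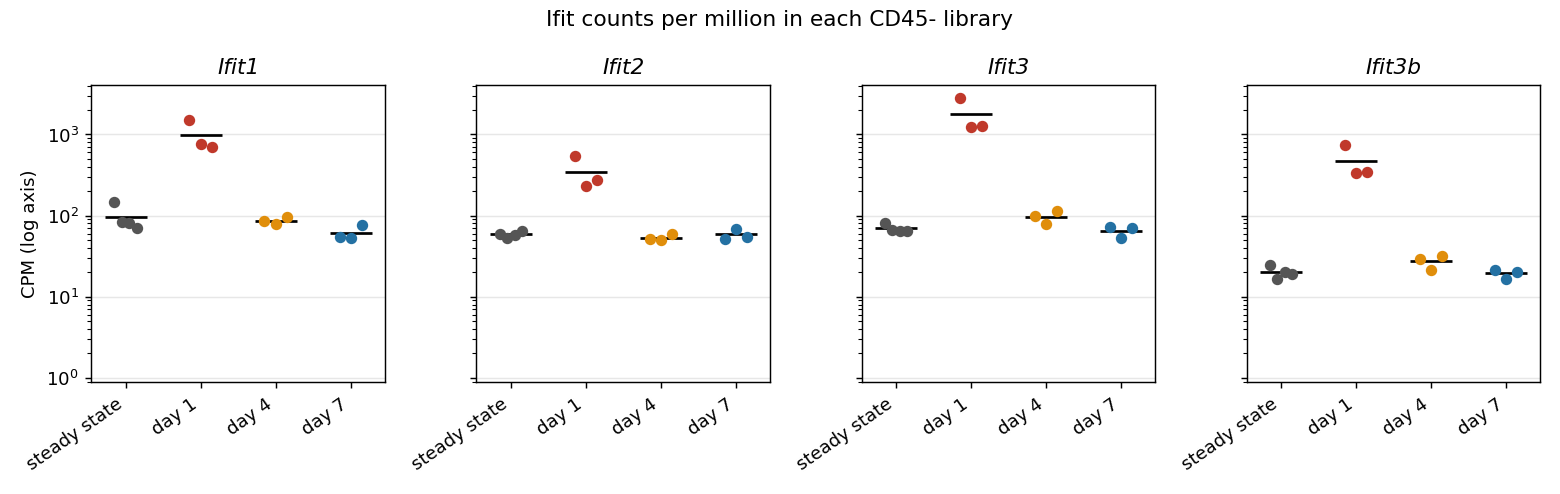
CPM on a log axis for each library (points) of Ifit1, Ifit2, Ifit3 and Ifit3b in the 4 conditions, with the group mean as a line. In each gene the 3 day 1 libraries lie above all others, from 235 to 536 CPM for Ifit2 and from 1232 to 2781 CPM for Ifit3, and day 1 replicate 1 is the highest.

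Day 1 replicate 1 was the highest library for each of the 4 genes. Without it the log2 fold changes at day 1 were 2.93 for Ifit1, 2.12 for Ifit2, 4.18 for Ifit3 and 4.07 for Ifit3b. That library stood apart in other genes too, in both directions. It had 14.0 CPM of Epcam against a day 1 median of 103, and 54.4 CPM of Eif3b against 418. For Eif3c it had 362 CPM against a day 1 median of 230. Why it differed was not tested. In the fit over all genes 1.68% of genes were higher and 0.671% lower at day 1 than at steady state with an adjusted p at or under 0.05. The 4 members are among those higher, which the choice of genes fixes and which supports nothing further. By log2 fold change they ranked 31 (Ifit3), 32 (Ifit3b), 83 (Ifit1) and 156 (Ifit2) of 19984 genes, counted from the largest rise. From day 1 to day 4 the log2 fold changes were -4.19 (Ifit3), -4.11 (Ifit3b), -3.52 (Ifit1) and -2.701 (Ifit2). The summed level of the members ran from 219 to 314 CPM at steady state and from 2557 to 5575 CPM at day 1. The sum was 230 to 298 CPM in the day 4 libraries and 191 to 222 CPM in those of day 7. In bulk RNA a higher level in the same cells and a change in which cells were present cannot be told apart.

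At day 4 none of the 4 members differed from steady state by the test. Ifit3 had a log2 fold change of 0.48 ± 0.284 (SE, adjusted p = 0.468, edgeR) and Ifit3b of 0.45 ± 0.289 (adjusted p = 0.493, edgeR). Ifit1 had -0.16 ± 0.317 (adjusted p = 0.841, edgeR), which became 0.22 without PBS day 1 replicate 2, and Ifit2 had -0.13 ± 0.257 (adjusted p = 0.836, edgeR), which became 0.0180 without day 4 replicate 1. In the fit over all 13 libraries 0 of the 4 members were called in either direction and 0 had an unadjusted p under 0.05, and DESeq2 called 0. Over all genes 0.05% were called higher and 0.24% lower, and the median log2 fold change of all genes was -0.13. An unadjusted p under 0.05 was reached by 2602 of 19984 genes (edgeR). A fit of only these 2 groups gave 0.58 ± 0.180 for Ifit3 and 0.56 ± 0.215 for Ifit3b. It gave -0.05 ± 0.259 for Ifit1 and -0.03 ± 0.158 for Ifit2 (adjusted p from 0.214 to 0.947, edgeR).

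At day 7 the differences from steady state were small for 3 members. Ifit2 differed by a log2 fold change of -0.0044 ± 0.257, Ifit3b by -0.0519 ± 0.291 and Ifit3 by -0.0869 ± 0.286 (SE, adjusted p from 0.971 to 0.999, edgeR). Ifit1 was the member farthest from steady state, at -0.65 ± 0.321 (adjusted p = 0.412, edgeR), which became -0.37 without PBS day 1 replicate 2. The estimate was 0.636-fold of the steady-state level, and the 95% interval of the log2 fold change, from -1.35 to 0.0392, includes no difference. Of the 4 members 0 were called, 0 had an unadjusted p under 0.05 and 0 were called by DESeq2. Over all genes 0.005% were called higher and 0% lower, and 2691 of 19984 had an unadjusted p under 0.05 (edgeR). The signs of the small differences turned when single libraries were left out. Without day 7 replicate 2 Ifit3 was at 0.0924 and Ifit3b at 0.106, and without PBS day 1 replicate 2 Ifit3b was at 0.0646. Ifit2 was at 0.0806, 0.0491, 0.0381 and 0.0047 without day 7 replicate 1, day 7 replicate 3, PBS day 7 replicate 2 and day 4 replicate 1.

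From day 4 to day 7 Ifit3 changed by -0.56 ± 0.306, Ifit3b by -0.50 ± 0.311 and Ifit1 by -0.50 ± 0.339, while Ifit2 changed by 0.13 ± 0.275 (log2, SE, adjusted p from 0.352 to 0.847, edgeR). The Ifit2 difference was -0.0132 without day 4 replicate 1 and -0.0820 without day 7 replicate 2. For Ifit1 and Ifit3 the day 4 and day 7 ranges of CPM did not overlap. This gap has no share over all genes beside it, so it cannot be weighed. By the test 0 of the 4 members were called, 0 had an unadjusted p under 0.05 and 0 were called by DESeq2. Over all genes 3.9% were called in either direction between these days, and 3735 of 19984 had an unadjusted p under 0.05 (edgeR).

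**Figure D2:**
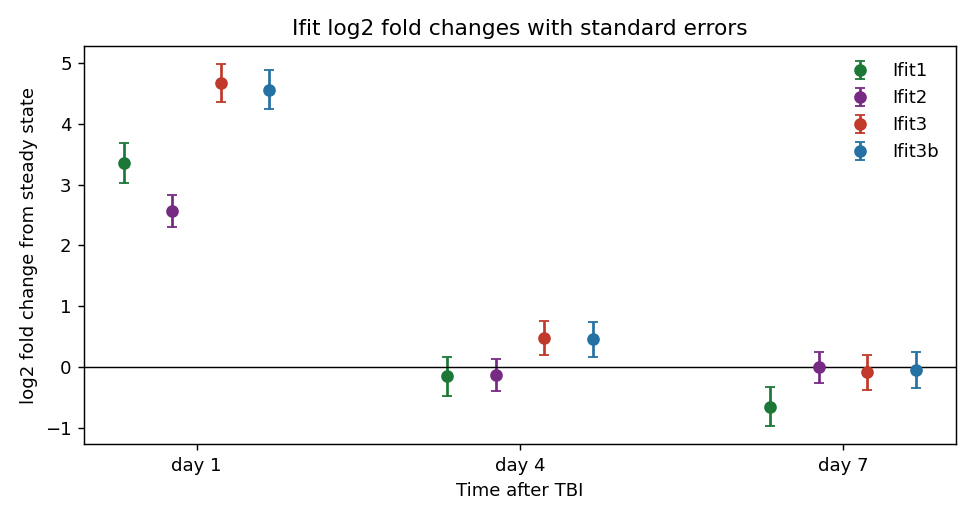
Log2 fold change from steady state (y axis) of Ifit1, Ifit2, Ifit3 and Ifit3b by day after TBI, as points with 1 SE. Day 1 lies between 2.57 and 4.67, and days 4 and 7 lie between -0.65 and 0.48.

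Per length of transcript (RPKM, here CPM divided by the exon length of the count table in kilobases), Ifit3 led at steady state with 39.8 ± 4.58 RPKM (SD, n = 4), followed by Ifit1 with 36.2 ± 13.3, Ifit2 with 14.97 ± 1.06 and Ifit3b with 10.1 ± 1.78. Ifit3 and Ifit1 overlapped, Ifit1 and Ifit2 did not, and Ifit2 lay above Ifit3b in 4 of 4 libraries. The exon lengths were not corrected for shared sequence, which covers 51.2% of 50-base stretches in Ifit3, 45.0% in Ifit3b and 0% in Ifit2. The order of Ifit3 and Ifit3b against the other members is therefore uncertain in every condition. At day 1 the order was Ifit3 with 1011 ± 505 RPKM (SD, n = 3), Ifit1 with 372 ± 169, Ifit3b with 237 ± 120 and Ifit2 with 88.9 ± 41.7. Ifit1 and Ifit3b overlapped as groups at day 1, although Ifit1 was higher in 3 of 3 libraries. Ifit2 and Ifit3b stood in a different order at day 1. Ifit3b was above Ifit2 in 3 of 3 day 1 libraries and Ifit2 was above Ifit3b in 3 of 3 day 7 libraries. At day 4 the pair could not be ordered, with 13.7 ± 1.19 RPKM for Ifit2 and 13.8 ± 2.71 for Ifit3b (SD, n = 3) and Ifit2 higher in 1 of 3 libraries. At day 7 the order was again that of steady state, with 37.5 ± 6.20 RPKM for Ifit3, 23.0 ± 4.85 for Ifit1, 14.9 ± 2.41 for Ifit2 and 9.70 ± 1.34 for Ifit3b (SD, n = 3). As a share of the summed RPKM of the members named here, without Ifit1bl1 and Ifit1bl2, Ifit3 went from 39.8% ± 2.67 at steady state to 59.0% ± 0.866 at day 1. The share of Ifit2 went from 15.2% ± 2.72 to 5.23% ± 0.399 (SD).

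The ratio of counts between a pair of members needs no library scaling. The log2 ratio of Ifit2 to Ifit3 was -0.24 ± 0.187 in the 4 steady-state libraries and -2.33 ± 0.0981 in the 3 of day 1 (SD). Day 4 gave -0.84 ± 0.169 and day 7 gave -0.16 ± 0.476. The ratio of Ifit2 to Ifit3b was 1.56 ± 0.224 at steady state and -0.43 ± 0.108 on day 1, then 0.98 ± 0.234 on day 4 and 1.59 ± 0.431 on day 7. Ifit1 to Ifit3 went from 0.41 ± 0.317 to -0.82 ± 0.105 at day 1, and Ifit1 to Ifit2 from 0.65 ± 0.495 to 1.51 ± 0.178. In each of these pairs the day 1 libraries lay outside the steady-state range, which is given as a description since day 1 chose the genes.

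The ratios were tested over steady state, day 4 and day 7 alone, where 0 of 6 pairs passed (exact permutation test over 4200 assignments, adjusted p from 0.099 to 0.768, Benjamini-Hochberg over 6 pairs). There, 3 pairs had an unadjusted p under 0.05, namely, in the same exact permutation test, 0.0295 for Ifit1 to Ifit3, 0.0467 for Ifit2 to Ifit3 and 0.0495 for Ifit1 to Ifit3b.

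The ratio of Ifit3 to Ifit3b moved least between the group means. It was 1.80 ± 0.147 at steady state, 1.90 ± 0.0109 on day 1, 1.82 ± 0.073 on day 4 and 1.75 ± 0.0601 on day 7 (log2, SD), with p = 0.768 in the exact permutation test without day 1. PBS day 4 replicate 2 had a log2 ratio of 2.01, against 1.71 to 1.75 in the other steady-state libraries and above all 3 of day 1.

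**Figure D3:**
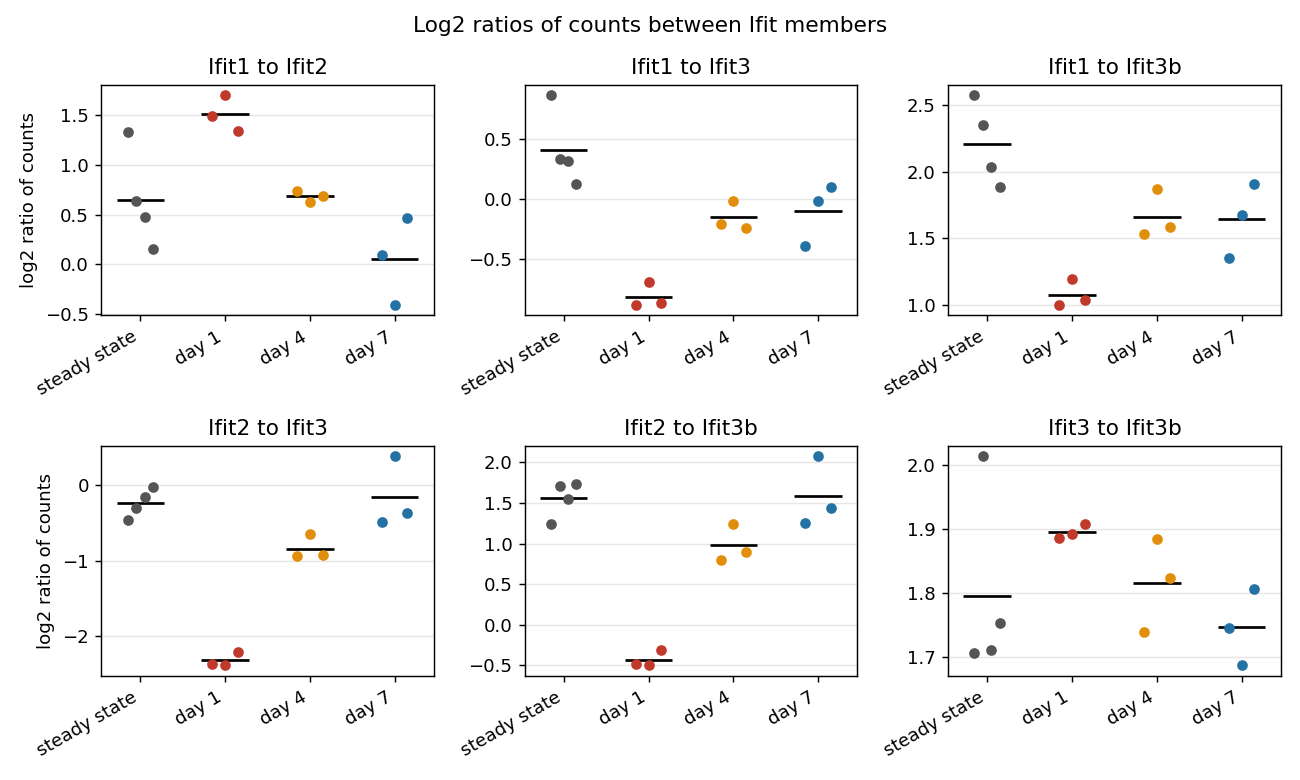
Log2 ratio of counts (y axis) for each of the 6 pairs of members in each library (points), with the group mean as a line. The ratios of Ifit1 and Ifit2 to Ifit3 and Ifit3b are lowest at day 1, and Ifit3 to Ifit3b stays between 1.69 and 2.01.

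Inside the cluster, Ifit1bl1 and Ifit1bl2 lie on the opposite strand between the members. Ifit1bl1 had 4.21 ± 1.04 CPM at steady state and 9.78 ± 4.22 at day 1 (log2 fold change 1.22 ± 0.412, SE, adjusted p = 0.156, edgeR), and Ifit1bl2 had 2.49 ± 0.791 and 6.34 ± 2.41 CPM (log2 fold change 1.35 ± 0.337, adjusted p = 0.0564, edgeR). Neither passed the test at any day. Before the cluster, Ch25h, the cholesterol 25-hydroxylase, had a log2 fold change of 1.39 ± 0.341 at day 1 (adjusted p = 0.0535, edgeR), and Lipa, lysosomal acid lipase, of 0.04 ± 0.242 (adjusted p = 0.948, edgeR). After it, Slc16a12 and Pank1 had 0.20 ± 0.319 and 0.35 ± 0.535 (adjusted p = 0.791 and 0.781, edgeR). None of the nearest 4 genes was called at day 1, 4 or 7.

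Of 38 other interferon-stimulated genes in the list used, 37 were tested, and all 37 rose at day 1 by the edgeR test, beside 1.68% of all genes called higher. Their median log2 fold change was 2.38 and that of all genes was -0.10. Mx1 rose from 2.69 ± 1.58 to 60.7 ± 30.7 CPM (log2 fold change 4.49 ± 0.584). Cxcl10, a chemokine for activated T cells, rose by a log2 fold change of 4.17 ± 0.543, and Isg15, a ubiquitin-like protein, by 3.99 ± 0.310. Oasl1 rose by 3.69 ± 0.343. At the other end were Trim25 at 1.01 ± 0.203 and Parp14 at 1.29 ± 0.243. None of the 37 exceeded Ifit3b, 8 exceeded Ifit1 and 16 exceeded Ifit2 in log2 fold change at day 1. At day 4 and at day 7, 0 of the 37 were called by edgeR, and 3 and 1 were called by DESeq2. At an unadjusted p under 0.05 (edgeR) there were 8 and 2 of the 37, beside 2602 and 2691 of 19984 genes. Without day 1 replicate 1, edgeR called 1 at day 4. Their median log2 fold changes were 0.19 and -0.08. The list was chosen with day 1 results known and is not independent evidence of direction.

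**Figure D4:**
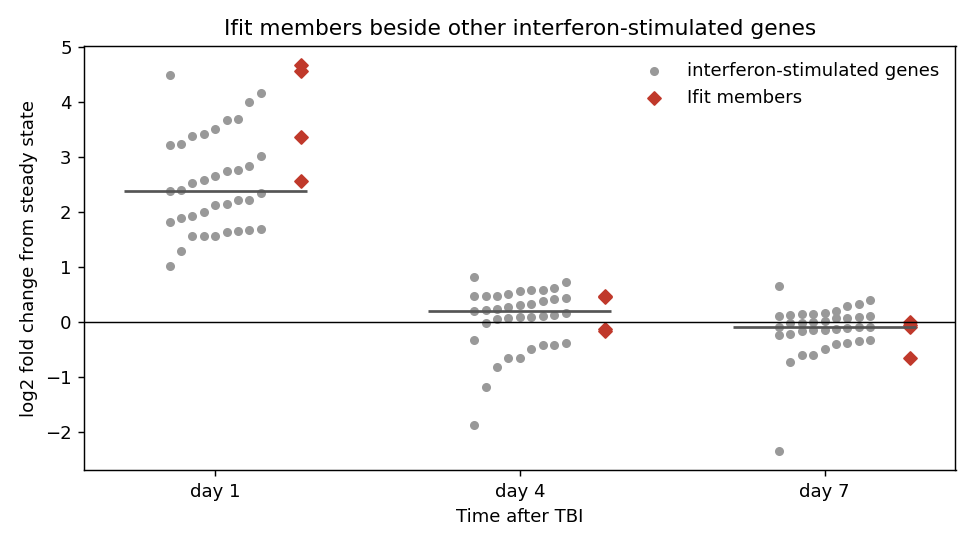
Log2 fold change from steady state (y axis) of 37 interferon-stimulated genes (grey points, the median as a line) and the 4 Ifit members (red diamonds) by day after TBI. At day 1 the list has a median of 2.38 and Ifit3 and Ifit3b lie above all its genes. At days 4 and 7 the list medians are 0.19 and -0.08, with 26 and 15 of 37 genes above 0 and single genes farther from 0. Rsad2, for example, had a mean of 192 CPM at steady state and 52.3 CPM at day 4.

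Interferon genes themselves had few counts. Of 10 interferon genes, 8 did not pass the filter, and the highest value in any library was 1.03 CPM, for Ifnl2 at steady state. Ifnb1 had at most 7 counts in a library and Ifng at most 17. The tested pair, Ifnl2 and Ifnl3, gave 0 calls at day 1 by edgeR, with 0 at an unadjusted p under 0.05 and 0 by DESeq2. At day 4 and at day 7 edgeR called 0 of the pair, with 1 and 2 at an unadjusted p under 0.05 and 0 and 1 by DESeq2. At day 7 the log2 fold changes from steady state were -5.19 ± 1.23 for Ifnl2 and -5.42 ± 1.98 for Ifnl3 (SE). Both rest on values near the floor, with the highest steady-state library far above the group median. Ifnl2 had a steady-state median of 0.193 and a high of 1.03 CPM, and at most 0.0205 CPM at day 7. Ifnl3 had a median of 0.0125 and a high of 0.461 CPM, and 0 CPM in the day 7 libraries. Cells outside the CD45- gate were not measured.

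Of the receptors and JAK-STAT components, Stat2 (log2 fold change 1.81 ± 0.235) and Irf9 (1.33 ± 0.228), which act together on the ISRE, rose at day 1. The receptor chain Ifnar1 had 123 ± 12.2 CPM at steady state and 128 ± 17.8 at day 1. Of 6 interferon regulatory factors, 1 rose, Irf7, the amplifier of type I interferon (3.17 ± 0.323). Of 8 feedback inhibitors, 2 rose, Isg15 and Usp18, which removes Isg15 from proteins and blocks the receptor (2.65 ± 0.288). Both are also in the interferon-stimulated list above. Of 13 tested nucleic acid sensors and adaptors, 7 rose and 0 fell, beside 1.68% of all genes called higher. The interferon-stimulated list also holds 4 of these 7, namely Ddx58, Dhx58, Ifih1 and Zbp1, so that the 2 counts are not separate. Among the 7 were Zbp1 (3.67 ± 0.300), Dhx58 (3.51 ± 0.266), Tlr3 (2.06 ± 0.290) and Ddx58, which encodes RIG-I (1.92 ± 0.219). At days 4 and 7, 0 genes of these 4 lists were called by edgeR. At an unadjusted p under 0.05 day 4 held 2 of the receptor list, 1 regulatory factor, 0 inhibitors and 3 sensors, and day 7 held 0 in each. DESeq2 called 1 regulatory factor and 2 sensors at day 4.

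Lists of genes that act with Ifit proteins or on their targets held no edgeR call. Of 6 genes for cap methylation and triphosphate removal, 0 were called at day 1 by edgeR, with 1 at an unadjusted p under 0.05 and 1 by DESeq2. Their median log2 fold change was -0.01, and 3 of the 6 were above 0. Cmtr1 of this list ran from 3.95 to 7.36 CPM at steady state and from 8.29 to 12.5 CPM at day 1. Of 13 eIF3 subunits, 0 were called at day 1 by edgeR and 3 by DESeq2, and the median log2 fold change was 0.48. At an unadjusted p under 0.05 (edgeR) there were 7 of the 13, beside 3444 of 19984 genes. Libraries differed widely in single subunits, such as Eif3b, with 54.4 to 458 CPM at day 1 and 53.2 to 287 CPM at day 4.

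The genes most like the members over the 3 log2 fold changes from steady state, among 11455 genes of at least 5 CPM, were Oasl1, Timp1, Mt2, Isg15, Oas1a, Olfr56, Oas1g and Ifi206. Their root-mean-square differences from the members' mean of 3.79 at day 1, 0.16 at day 4 and -0.20 at day 7 ran from 0.121 for Oasl1 to 0.342 for Ifi206. Timp1, an inhibitor of matrix metalloproteinases, and the metallothionein Mt2 stood in 2nd and 3rd place (3.68 and 3.71 at day 1). After subtraction of each condition's mean, the genes that varied most like the members over the 13 libraries were Gm12250 (r = 0.942), Samhd1 (0.908), Isg15 (0.902), Itpripl1 (0.900), Iigp1 (0.896), Dhx58 (0.889), Usp18 (0.887) and Tgtp2 (0.885). These correlations are descriptions over points that share depth and library, and they carry no p. Among the members r was 0.969 for Ifit3 and Ifit3b and 0.558 for Ifit1 and Ifit2. The members' mean deviation from their condition was largest in day 1 replicate 1, at 0.74 on the log2 scale.

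The labelled cell type was checked by markers. Summed CPM of 5 fibroblast markers ran from 14564 to 107820 at steady state and from 25563 to 67807 at day 1, 5 endothelial markers from 582 to 985 and from 585 to 817, and 6 epithelial markers from 709 to 2623 and from 1313 to 2223. At day 1 Pdgfrb of the fibroblast list rose (log2 fold change 1.68 ± 0.281), while 2 of the 5 fibroblast markers had a positive log2 fold change and their median was -0.04. Dcn of that list had 11703 ± 5601 CPM at steady state and 5448 ± 334 at day 1 (adjusted p = 0.157, edgeR). At day 1 there were 0 endothelial and 0 epithelial markers called by edgeR (1 and 0 at an unadjusted p under 0.05, 1 and 0 by DESeq2). The epithelial sum was 2520 to 3397 CPM at day 4 and 556 to 1033 CPM at day 7, and between these days 2 of the 6 epithelial markers fell, Krt5 and H2-Aa, with a median log2 fold change of -1.69. Leukocyte and erythroid RNA was present and moved with the conditions. The 12 thymocyte markers summed to 234 to 786 CPM at steady state, 116 to 150 on day 1, 23.3 to 35.5 on day 4 and 208 to 4848 on day 7. Of these 12, 0 were called at day 1 by edgeR (10 at an unadjusted p under 0.05, 4 by DESeq2). The 7 erythroid markers summed to 21382 to 36980 CPM at steady state and 4178 to 18303 at day 1, with 3 of 7 lower. They summed to 9.81 to 14.5 CPM at day 4, with 7 of 7 lower than at steady state, and to 2953 to 8490 CPM at day 7, with 7 of 7 higher than at day 4 and 0 of 7 called against steady state by edgeR (5 at an unadjusted p under 0.05, 4 by DESeq2). The 7 neutrophil markers summed to 4.58 to 26.4 CPM at steady state and 21.2 to 43.0 at day 1, with 1 of 6 tested called, Csf3r, from 0.118 to 5.05 CPM. Of 5 plasmacytoid dendritic cell markers 1 rose, Bst2, itself an interferon-stimulated gene, and Siglech had 3.71 CPM at steady state and 0.359 at day 1. Of 8 macrophage and 5 B cell markers 0 were called at day 1 (1 and 2 at an unadjusted p under 0.05, 1 and 1 by DESeq2), with sums of 70.9 to 123 CPM and 4.82 to 10.5 CPM at day 1. In a fit that held the mean thymocyte marker level constant, the day 1 log2 fold changes were 3.54 (Ifit1), 2.73 (Ifit2), 4.63 (Ifit3) and 4.56 (Ifit3b). The part of the other cells in the Ifit levels at day 1, day 4 and day 7 was not tested.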

How the data were processed

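Bulk RNA of CD45- thymic stroma was analysed in 13 libraries, of which 4 were unirradiated and 9 were taken after TBI, 3 per time point. The authors deposited 1 table of counts per gene, read with no normalization. The submitters' processing notes name Trimmomatic 0.38, STAR 2.7.0e, featureCounts 1.6.3 and GRCm38.p5. Steady-state columns carry no replicate number of the labels and were named by day and replicate of the PBS header.

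Counts were tested with edgeR 4.0.16 in R 4.3.3 (filterByExpr, TMM, quasi-likelihood F-test over all 13 libraries and 19984 genes, Benjamini-Hochberg at 0.05). SE is the absolute log2 fold change divided by the square root of F. CPM uses TMM library sizes. Ratios are log2((count + 0.5)/(count + 0.5)), tested by exact permutation over the 10 libraries other than those of day 1. Alternatives were DESeq2 1.42.0, RLE scaling, other filters, 2 groups only, a replicate block, thymocyte and header-tag covariates, and each library left out. The header tags (k3, kk or neither) are explained by no label and were uneven over the conditions. Day 1 held no k3 library, and all day 7 libraries held k3 or kk. Tag and day can therefore not be fully told apart. With the tag covariate the day 1 log2 fold changes were 3.23 (Ifit1), 2.51 (Ifit2), 4.56 (Ifit3) and 4.44 (Ifit3b). The edgeR fit and the permutation test were tested on simulated data. Depth and n limit precision.

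Members and gene lists were chosen with earlier results of these data known. The members were named always. Other genes were named by the 8 smallest root-mean-square differences, the 8 highest correlations within conditions, the 4 largest and 2 smallest rises of the interferon-stimulated list, up to 4 called genes of each other pathway list, and every neighbour in and next to the cluster. Siglech, Csf3r, Bst2, Pdgfrb, Dcn, Krt5, H2-Aa, Epcam, Eif3b, Eif3c, Cmtr1, Ifih1, Ifnar1, Ifnb1, Ifng, Ifnl2 and Ifnl3 were named after their values were seen. Annotation came from GENCODE M21 and promoters from RefSeq. One gene of the receptor and JAK-STAT list, and the count of calls at day 1 that includes it, is not reported here.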

Additional observations from a re-analysis of the deposited data

Results flagged for a closer look

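In a test for outliers in groups of 4 (Dixon's ratio at its 95% critical value), 3 of 10 steady-state values stood apart, where chance gives about 1 in 20. The 10 values come from 4 genes and the ratios between them in the same 4 libraries. They are not independent, so 3 of 10 cannot be weighed against that rate. Ifit1 was 149 CPM in PBS day 1 replicate 2 and 71.1 to 83.6 CPM in the other 3 libraries. Ifit3 was 81.4 CPM in the same library and 65.0 to 66.1 CPM in the others. The log2 ratio of Ifit3 to Ifit3b was 2.01 in PBS day 4 replicate 2 and 1.71 to 1.75 in the others.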

How the results depend on the processing

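At day 1, where the choice of genes fixes the direction, the 21 alternatives gave log2 fold changes of 2.93 to 3.70 (Ifit1), 2.12 to 2.79 (Ifit2), 4.18 to 4.87 (Ifit3) and 4.07 to 4.76 (Ifit3b). At days 4 and 7 and between them, 0 members were called under any of the 21, and 37 interferon-stimulated genes called at day 1 became 32 to 37. Signs of small differences turned. For day 4 against steady state Ifit1 was 0.28 and Ifit2 0.28 with the thymocyte covariate, and leaving out 1 library gave -0.28 to 0.22 and -0.21 to 0.0180. For day 7 Ifit2 was 0.0068 with DESeq2, 0.0067 with RLE and 0.0113 without a filter, and leaving out 1 library gave -0.0997 to 0.0806 (Ifit2), -0.17 to 0.0924 (Ifit3) and -0.14 to 0.11 (Ifit3b). For day 7 against day 4 Ifit2 was -0.0199 with the tag covariate and -0.45 with the thymocyte covariate, and leaving out 1 library gave -0.0820 to 0.21. The cause of these was not tested. Interferon-stimulated genes called at day 4 were 3 with DESeq2, 1 without a filter and 0 to 1 with 1 library left out, and at day 7 were 1 with DESeq2 and 1 without a filter, against 0.

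The test of the 6 ratios was chosen over all 4 conditions, but that includes day 1, so only the test without day 1 is used, an alternative chosen after seeing the data in which 0 of 6 passed. With the replicate block 34 interferon-stimulated genes were called at day 1 and 0 members at later days. Same-numbered libraries did not deviate together (mean r = -0.09 over 21 pairs), so the numbers were not treated as paired. Limits are 3 or 4 libraries a group and shared sequence of Ifit3 and Ifit3b.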
